A study of Mus musculus with 12 samples.

Results

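The ATP-binding cassette (ABC) genes of families A to G were compared between side population cells from a pair of mouse muscle sources: the muscles around the eyeball (extraocular muscle, EOM) and a shin muscle, tibialis anterior (TA). Members were all probe sets whose only gene symbol in the platform annotation belongs to Abca, Abcb, Abcc, Abcd, Abce, Abcf or Abcg. This gave 92 probe sets of 45 genes, among 45101 probe sets and 18193 singly named genes on the array. Each group had 6 separately isolated cell preparations, with 1 Affymetrix Mouse 430 2.0 array per preparation. Both groups were side population cells, and the labels name no treatment, transgene or mutation for either. The strain, age and sex of the mice, the dye and the gate of the sort, and whether muscles of several mice were pooled are not given in the sources used here.

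ABC transporters use ATP to move lipids, sterols, drugs, dyes and conjugated metabolites across membranes. Side population cells are sorted as cells that keep little of a DNA-binding dye such as Hoechst, because membrane pumps export it. Abcg2, also called breast cancer resistance protein, is the pump best known for this export, and P-glycoprotein, encoded in the mouse by the neighbouring genes Abcb1a and Abcb1b, exports many drugs and dyes. In muscle and other tissues both pumps are also well known from the endothelium of small vessels. Families E and F carry the ATP-binding domains but no membrane-spanning part and act in ribosome recycling and translation.

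The results turn on the dye pumps and on a pair of neighbouring family A genes whose values differed, so the 250 bases before the annotated start of 5 genes are shown 5′ to 3′ from RefSeq (build GRCm38.p6). They were searched on both strands for ACGTG (the core of the hypoxia response element), GCGTG (the core of the xenobiotic response element), GGGCGG (the GC box) and AGGTCA (a nuclear receptor half-site). Capitals mark the matches. Abcg2 lies on the plus strand with the window chr6:58640296-58640545 before the most 3′ of its 3 listed starts, and Abcb1b and Abcb1a on the plus strand with chr5:8797897-8798146 and chr5:8566841-8567090. Abca8b and Abca8a are on the minus strand with chr11:109995846-109996095 and chr11:110095938-110096187.
Abcg2: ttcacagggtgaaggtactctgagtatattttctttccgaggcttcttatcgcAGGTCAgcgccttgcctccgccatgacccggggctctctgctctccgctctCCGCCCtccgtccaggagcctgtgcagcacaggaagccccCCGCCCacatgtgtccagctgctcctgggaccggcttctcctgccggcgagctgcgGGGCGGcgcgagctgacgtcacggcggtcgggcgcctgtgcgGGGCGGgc
Abcb1b: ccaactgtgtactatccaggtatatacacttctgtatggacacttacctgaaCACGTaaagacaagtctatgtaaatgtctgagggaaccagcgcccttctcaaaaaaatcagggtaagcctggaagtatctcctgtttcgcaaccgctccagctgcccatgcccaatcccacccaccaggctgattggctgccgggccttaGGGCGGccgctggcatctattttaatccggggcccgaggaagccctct
Abcb1a: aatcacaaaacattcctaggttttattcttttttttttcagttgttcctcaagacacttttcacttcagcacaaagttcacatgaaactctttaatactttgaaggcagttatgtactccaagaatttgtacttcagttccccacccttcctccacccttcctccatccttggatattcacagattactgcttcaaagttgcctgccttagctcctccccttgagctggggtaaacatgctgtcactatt
Abca8b: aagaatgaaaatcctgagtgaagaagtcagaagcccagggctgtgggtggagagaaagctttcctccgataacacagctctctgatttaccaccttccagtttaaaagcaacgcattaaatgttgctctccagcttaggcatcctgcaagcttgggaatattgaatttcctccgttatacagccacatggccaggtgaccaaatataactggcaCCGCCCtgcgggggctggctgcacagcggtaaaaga
Abca8a: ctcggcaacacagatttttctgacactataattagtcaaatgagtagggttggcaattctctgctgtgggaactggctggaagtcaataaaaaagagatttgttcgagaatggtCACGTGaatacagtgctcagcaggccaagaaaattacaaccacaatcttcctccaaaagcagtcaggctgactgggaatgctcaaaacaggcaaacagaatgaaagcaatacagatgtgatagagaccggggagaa

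The Abcg2 window was 67.6% G and C and held 4 GC boxes and 1 AGGTCA half-site. The Abcb1b window (52.8% G and C) held 1 ACGTG core and 1 GC box, while the Abcb1a window (40.4%) held no match to any of the 4 motifs. The Abca8b window (48.8%) held 1 GC box, and the Abca8a window (43.2%) held the palindrome CACGTG, which reads as ACGTG on both strands and was counted 2 times. Among 32851 RefSeq windows of the same length, 16.6% held ACGTG, 28.2% GCGTG, 32.7% GGGCGG and 14.0% AGGTCA. These matches describe letters and are not binding sites, and binding was not measured here.

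The values are MAS5 signals in arbitrary units, scaled by the authors so that every array has the same trimmed mean of 150. A signal depends on the probes, so the levels of different genes were not ranked against each other. Signals were set only against the median of their array and, to pick the brightest probe set, within a gene. Fold changes are EOM minus TA on the scale log2(signal + 16). A gene was called when its limma p-value, adjusted by Benjamini-Hochberg over all tested probe sets, was under 0.05. Arrays EOM 1, TA 3 and TA 5 stood apart, with a median signal of 87.2, 69.6 and 63.2 against 31.2 to 43.4 on the other 9, and EOM 1 had a mean correlation of only 0.615 with the other EOM arrays. The ratio of 3′ to 5′ actin signal ran from 5.27 to 165 over the 12 arrays and was above 100 on these 3. Results for ABC genes that rest on these arrays are given with and without them. Genes of the marker and partner lists were fitted with all 12 arrays only. Markers of the muscle fibre and satellite cell list were low on both sides (summed signal 66.9 to 588 in EOM and 309 to 1189 in TA), and Pax7 and Myf5 were below the level tested.

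Of the 45 ABC genes, 37 were bright enough to test (64 of the 92 probe sets). Of these, 1 was higher in EOM (Abca8b) and 3 were lower (Abcg2, Abcb1b and Abcg1). That is 10.8% of the ABC genes, and 10.9% of all 13093 tested genes were called (4.08% higher and 6.81% lower), so the share called among ABC genes was near the background. The median fold change was -0.03 for the ABC genes and -0.04 for all tested genes, and 18 of the 37 were above 0. The groups did not overlap for 2 genes, Abcg2 and Abcb1b, or 5.41%, against 7.15% of all tested genes. Without EOM 1, 2 of 36 tested ABC genes were higher (Abca6 and Abca8b) and 6 lower (Abca7, Abcb1b, Abcb4, Abcc4, Abcg1 and Abcg2), where 20.8% of all genes were called (10.1% higher and 10.7% lower). Without EOM 1, TA 3 and TA 5, 3 of 35 were higher (Abca2, Abca6 and Abca8b) and 5 lower (Abca7, Abcb1b, Abcb4, Abcg1 and Abcg2), where 22.3% of all genes were called (10.8% higher and 11.4% lower).

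**Figure D1:**
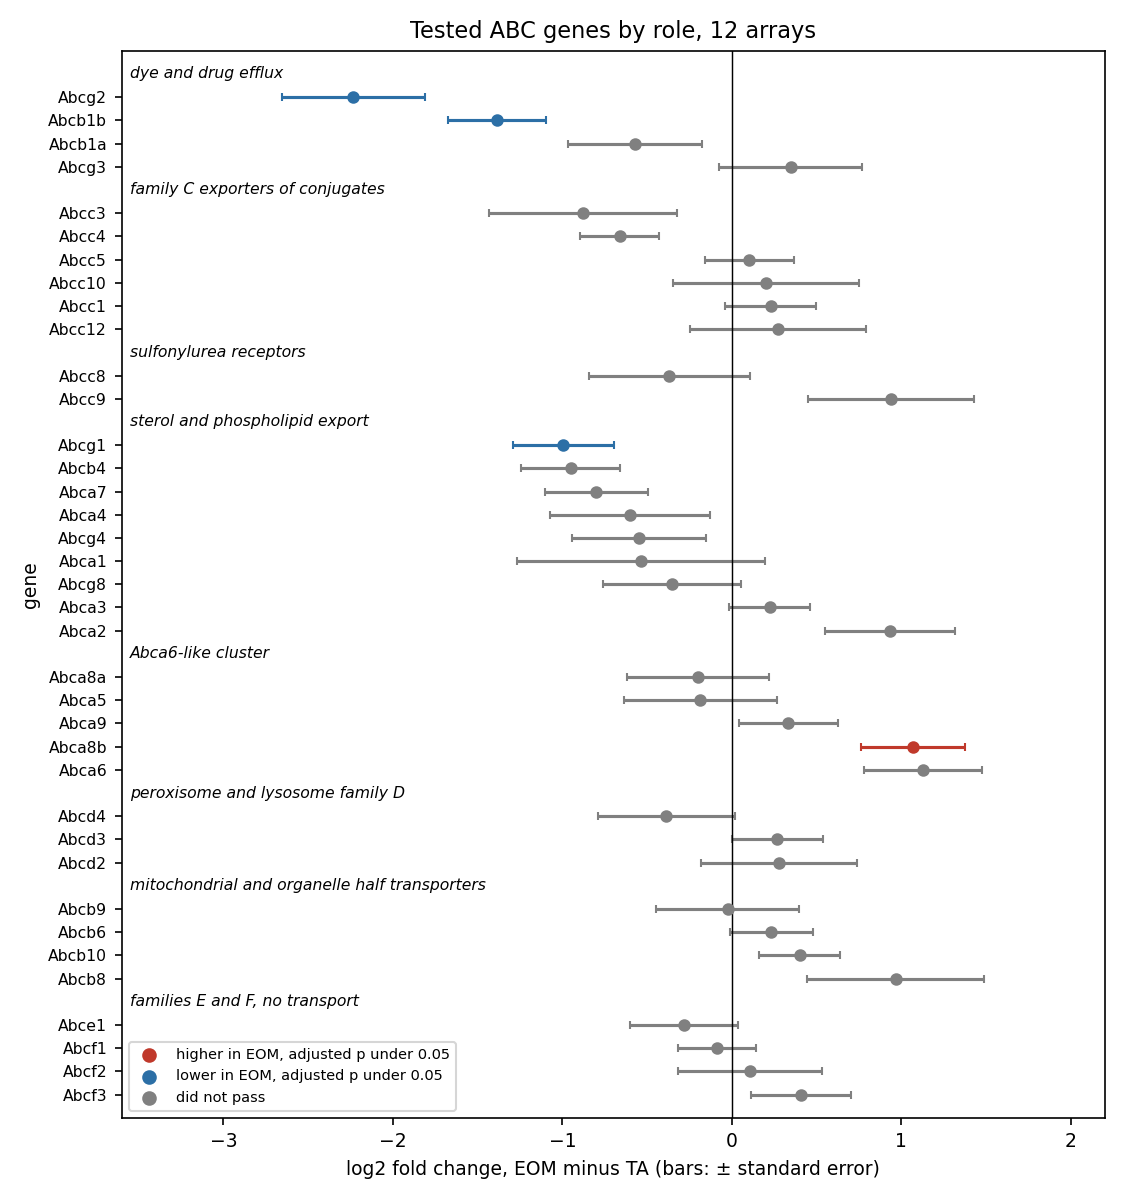
Log2 fold change, EOM minus TA, of the 37 tested ABC genes grouped by role, with bars of 1 standard error either way. Abcg2 at -2.23 and Abcb1b at -1.38 lie farthest left, Abcg1 (-0.996) and Abca8b (1.07) are the other called genes, and the 33 uncalled genes (grey) lie between -0.95 and 1.13.

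The dye and drug efflux role had 4 measured genes: Abcg2, Abcb1a, Abcb1b and Abcg3, a relative of Abcg2 that is not among the dye pumps named above. Of these, 2 fell in EOM, 0 rose and 2 did not pass, where 6.81% of all tested genes were lower and 4.08% higher. Abcg2 was the ABC gene with the largest change. Its signal (probe set 1422906_at) was 495.8, 100.3, 856, 777.8, 1014.3 and 654.1 on EOM arrays 0, 1, 2, 3, 5 and 6. On TA arrays of the same numbers it was 2054.4, 3460.7, 3084.7, 1705.1, 3339.4 and 2362.6. Every TA array was above every EOM array, and EOM 1 was the lowest of all. The means were 650 ± 322 in EOM and 2668 ± 728 in TA (SD, n = 6 each), a TA mean 4.11-fold that of EOM. The fold change was -2.23 ± 0.42 (SE; 95% confidence interval -3.12 to -1.34), with an adjusted p of 0.00200 from limma. Without EOM 1 it was -1.78 with an adjusted p of 3.01e-05, and without all 3 arrays that stood apart -1.84. Abcg2 was also above the array's median signal on all 12 arrays, EOM 1 included.

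Abcb1b, 1 of the pair of genes for P-glycoprotein, was lower in EOM as well. Its signal (1418872_at) was 160.6, 191.2, 198, 162.7, 139 and 60.2 on the EOM arrays and 361.9, 580.5, 466.8, 257.8, 361 and 448.8 on the TA arrays, in the same order. The groups did not overlap, and EOM 6 was the lowest. The means were 152 ± 49.9 and 413 ± 111 (SD, n = 6 each), a TA mean 2.72-fold that of EOM, with a fold change of -1.38 ± 0.29 and an adjusted p of 0.00441. Centring each array on its median left -1.29 with an adjusted p of 0.0536, outside the threshold. A second Abcb1b probe set was too dim to test.

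Abcb1a, the other P-glycoprotein gene, did not pass. Its signal (1419759_at) was 762.4, 402.2, 1338.6, 1399.3, 1045.4 and 646.5 on the EOM arrays and 1988.5, 2298.1, 923.7, 715, 591.4 and 2443.1 on the TA arrays. TA fell into a high set (arrays 0, 1 and 6) and a low set (2, 3 and 5) that lay within the EOM range, so the groups overlapped. The fold change was -0.57 ± 0.40 (95% confidence interval -1.41 to 0.26, adjusted p = 0.492), and a second probe set (1419758_at) gave -0.16 (interval -0.89 to 0.56, adjusted p = 0.882). The first interval reaches past the estimate for Abcb1b, so an equal level in both muscles is not shown. Without EOM 1, TA 3 and TA 5 the estimate was -0.84, with an adjusted p of 0.0519.

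Whether the pumps differed from each other in their change was tested on the per-array difference of their log2 values, in an exact two-sided permutation test over 924 assignments of the arrays. This was done for 5 gene pairs, all chosen after their values were seen, with p-values adjusted over the 5, so these tests describe differences already seen and are no independent support. Abcg2 fell by 1.66 more than Abcb1a on the log2 scale (EOM minus TA of -1.66, exact p = 0.00649, adjusted 0.0108), although the per-array differences overlapped between groups. Abcb1b against Abcb1a gave -0.81 (exact p = 0.0887, adjusted 0.111). Without EOM 1 the latter was -1.10 with an exact p of 0.0216, and without the 3 arrays -0.80 with 0.0397. In the other 13 of 15 alternatives the exact p was not under 0.05. Over the 15 this difference ran from -1.10 to -0.60, with an exact p up to 0.182. The coding sequences of Abcb1a and Abcb1b are closely related, and how far each probe set also binds the other transcript was not tested.

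**Figure D2:**
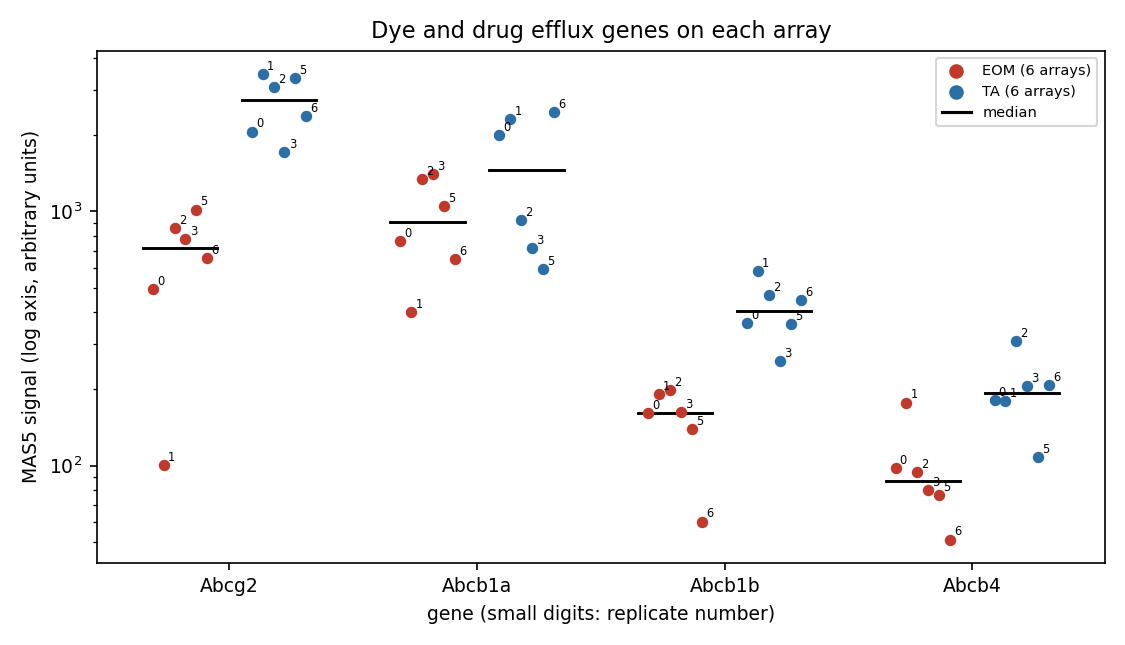
MAS5 signal (log axis, arbitrary units) of Abcg2, Abcb1a, Abcb1b and Abcb4 on each of the 6 EOM and 6 TA arrays, with the replicate number beside each point and black lines at the medians. The groups are apart for Abcg2 (EOM at most 1014, TA at least 1705) and Abcb1b (198 and 257.8) and overlap for Abcb1a and Abcb4; heights of different genes are not comparable.

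Abcb4, which flips phosphatidylcholine to the outer membrane leaflet, directly follows Abcb1a and Abcb1b in the gene order of chromosome 5. Its signal ran from 51.2 (median 87.3) to 176.8 in EOM and from 107.9 (median 193) to 307.9 in TA. Only EOM 1 was above the lowest TA array. The fold change of -0.95 ± 0.29 missed the threshold with an adjusted p of 0.0544. It was called without EOM 1 (-1.12, adjusted p = 0.00543) and without all 3 arrays that stood apart (-1.28, adjusted p = 0.000988). Abcg3, a rodent relative of Abcg2, gave 0.35 with an adjusted p of 0.757, and its EOM range of 26.6 to 172.8 owed its top to EOM 1, the next array being at 42.

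Markers of cell types also differed between the groups, where 6.81% of all tested genes were lower in EOM and 4.08% higher. Of 20 endothelial markers, all tested, 18 were lower in EOM and 0 higher, with a median fold change of -3.56. Their summed signal was 2714 to 4945 on EOM arrays and 23674 to 59269 on TA arrays, and 0 of the marker probe sets were at 0 on any array. The cadherin of endothelial junctions, Cdh5, had a mean of 66.3 in EOM and 1149 in TA, whereas Pecam1 gave -1.84 with an adjusted p of 0.0688. Tek, also not called, had means of 722 in EOM and 842 in TA (-0.18, adjusted p = 0.905). Of 11 tested pericyte and smooth muscle markers 9 were lower (median -2.63, summed signal 3728 to 9931 against 19998 to 33606), as were 6 of 7 pan-leukocyte markers (median -2.23) and 5 of 9 markers of macrophages and monocytes (median -2.07). The pericyte and smooth muscle markers not called were Pdgfrb (-0.51) and Des (-0.79). Fibroblast markers went the other way, with 7 of 13 higher, 0 lower and a median of 1.42. Of 6 tested muscle markers 1 was lower (Acta1), and of 4 tested glial markers 0 were called, with 0 at an unadjusted p under 0.05. In such bulk preparations fewer cells of a type and less RNA per cell cannot be told apart. The part of these markers in the pump values was not tested.

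**Figure D3:**
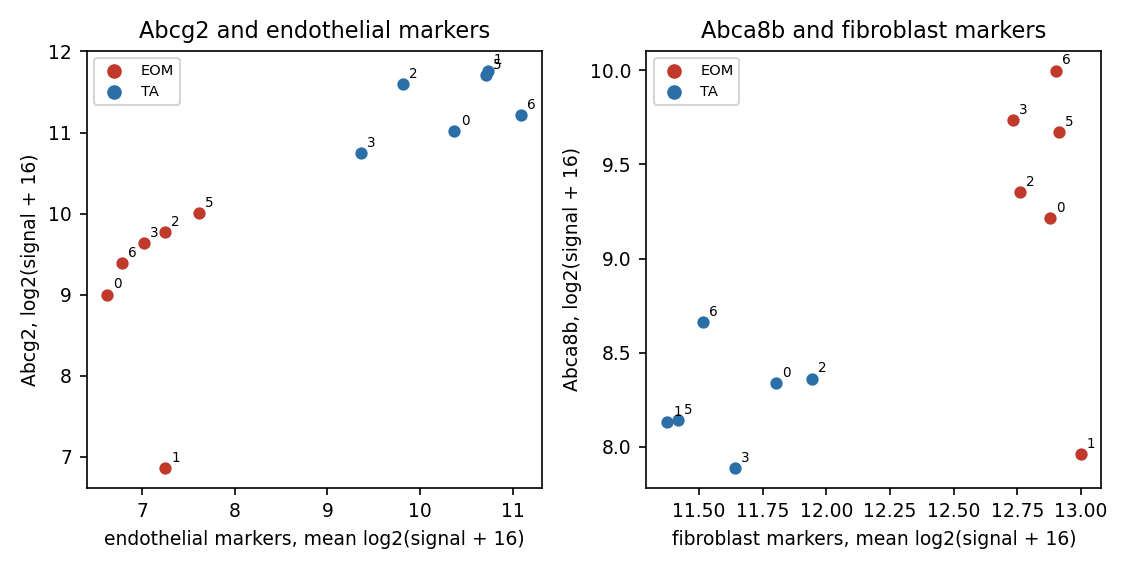
Abcg2 against the mean of the endothelial markers (left) and Abca8b against the mean of the fibroblast markers (right), each as log2(signal + 16), 1 point per array with its replicate number. The 6 TA arrays lie above the EOM arrays on both axes of the left panel; on the right, EOM 1 lies at the Abca8b level of the TA arrays (233.6 against 220.9 to 388.9 as signal).

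Family C proteins export glutathione, glucuronide and sulphate conjugates and signalling nucleotides. Of 8 such genes 6 were tested, and limma called 0 of them with all arrays (median 0.15), with 1, Abcc4, at an unadjusted p under 0.05. With array weights Abcc3 (adjusted p = 0.0284) and Abcc4 (0.0343) were called as lower, and Abcc4 was also called with probe sets averaged (0.0333). Abcc4, an exporter of cyclic nucleotides and prostaglandins, ran from 166.1 (median 182) to 248.8 in EOM and from 211.9 (median 317) to 417.8 in TA. The 2 sides met only through EOM 5 and TA 0. Its change was -0.66 ± 0.23 with an adjusted p of 0.0955, and it was called without EOM 1 (-0.67, adjusted p = 0.0452) but not without all 3 arrays (0.0700). Abcc3, an exporter of glucuronides, was at 1.3 to 6.8 on 5 EOM arrays, 137 on EOM 1 and 14.1 to 107 on the TA arrays, and gave -0.88 ± 0.56 with an adjusted p of 0.436. Without EOM 1 its mean fell below the level tested. Abcc1 (0.23), Abcc5 (0.10), Abcc10 (0.20) and Abcc12 (0.27) had adjusted p-values between 0.751 and 0.914. The brightest Abcc5 probe set was used, and its 8 tested probe sets ran from -0.35 to 0.69.

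The sulfonylurea receptors Abcc8 and Abcc9 are not pumps but regulatory subunits of ATP-sensitive potassium channels, whose pore is Kcnj11 or Kcnj8. Abcc9 was examined with 3 probe sets. The brightest (1435752_s_at) was 2655.7, 872.5, 2685.4, 3430.1, 3017.3 and 1976.7 on the EOM arrays and 1560.2, 1774.8, 988.8, 375, 521.9 and 4546 on the TA arrays. TA 6 was the highest of all 12 and TA 3 the lowest. The fold change was 0.94 ± 0.49 with an adjusted p of 0.314, so Abcc9 was not among the called genes.

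A second Abcc9 probe set (1435751_at), looked at after its values were seen, ran from 1804.3 (median 2024) to 2924.9 in EOM and from 166.1 (median 608) to 3710.4 in TA. All TA arrays but TA 6 were below all EOM arrays. It was higher in EOM by 1.87 ± 0.53 with an adjusted p of 0.0358, 1 of 5 called among the 64 tested ABC probe sets, where 8.27% of all tested probe sets were called. The call was lost in 9 of 12 omissions of a single array (adjusted p up to 0.0990). The change was 2.40 with an adjusted p of 0.000672 without TA 6, and 1.07 with 0.0811 without EOM 1, TA 3 and TA 5. The remaining one (1420408_a_at) gave 0.44 with an adjusted p of 0.645, so the 3 probe sets had the same sign and unequal sizes.

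Kcnj8, the pore gene that lies next to Abcc9 on chromosome 6, went the other way. It was 188.1, 147.4, 269.6, 335.1, 842.6 and 441.9 on the EOM arrays and 925.5, 1043.2, 966.3, 1227.1, 1285.6 and 4877.9 on the TA arrays, without overlap. Its fold change was -2.09 ± 0.43 with an adjusted p of 0.00383, and it is also 1 of the pericyte and smooth muscle markers above. Array TA 6 was the highest for Kcnj8, as it was for each Abcc9 probe set. The difference of Abcc9 and Kcnj8 within an array was 3.02 higher in EOM (exact p = 0.00216, the smallest this design allows; adjusted over 5 pairs 0.00541), with no overlap between the groups. This pair too was chosen after its values were seen. Abcc8 gave -0.37 (adjusted p = 0.775), and Kcnj11, its neighbour on chromosome 7, gave -0.39 and was not called.

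**Figure D4:**
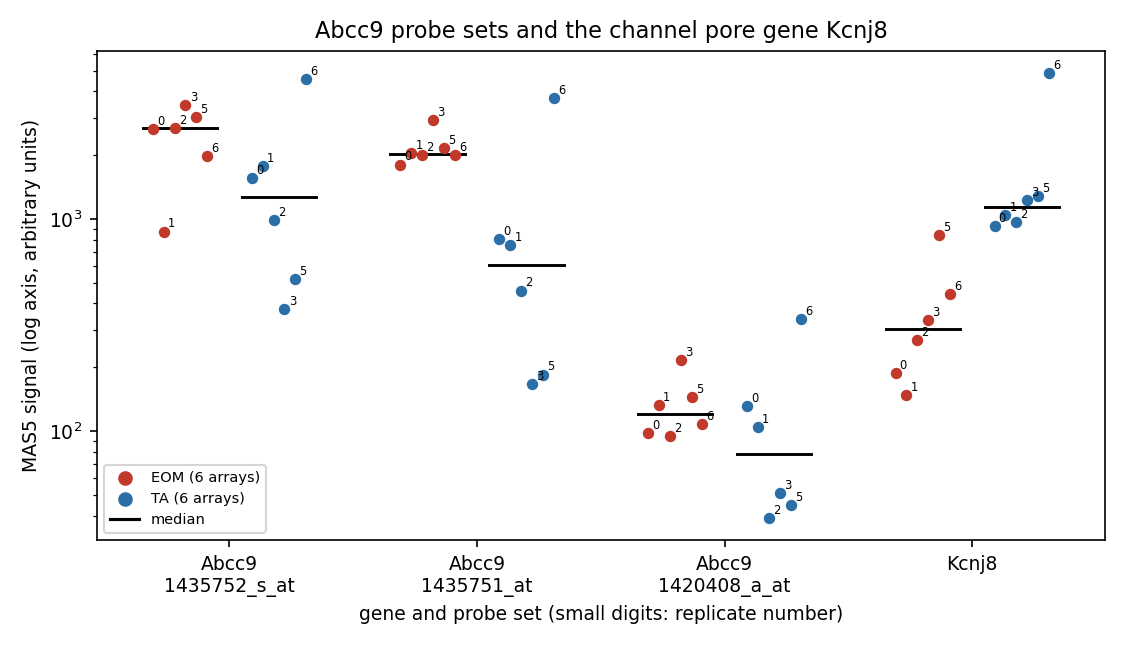
MAS5 signal (log axis, arbitrary units) of the 3 Abcc9 probe sets and of Kcnj8 on each array, with replicate numbers and medians. TA 6 is the top point of every column, and the EOM median lies above the TA median for each Abcc9 probe set, while all EOM arrays lie below all TA arrays for Kcnj8; heights of different probe sets are not comparable.

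The sterol and phospholipid exporters had 13 genes, of which 9 were tested, 1 fell and 0 rose (median -0.55). Among all tested genes 6.81% were lower and 4.08% higher. Abcg1, which loads cholesterol onto high-density lipoprotein, was 133.1, 324.5, 99.7, 111.9, 173 and 96 on the EOM arrays and 224.9, 249.9, 248.1, 381, 430.4 and 318.1 on the TA arrays. Only EOM 1 reached into the TA range. The means were 156 ± 87.1 and 309 ± 82.8 (SD, n = 6 each), with a fold change of -0.996 ± 0.30 and an adjusted p of 0.0460. Without EOM 1 the adjusted p was 0.00146, but leaving out any of the other 11 arrays ended the call (adjusted p up to 0.121). Most endothelial and leukocyte markers given above were also lower in EOM, and their part in the Abcg1 values was not tested.

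Abca1, which hands cholesterol to lipid-poor apolipoprotein A1, ran from 657.8 to 1742.1 on 5 EOM arrays and from 1062.1 to 1446.1 on 5 TA arrays. EOM 1 was at 19.9 and TA 3 at 221.5, both far under the rest of their group. The fold change of -0.54 ± 0.73 (adjusted p = 0.792) had the widest standard error among tested ABC genes and became 0.29 without EOM 1 (adjusted p = 0.670). Abcg1 against Abca1 within arrays gave -0.46 (exact p = 0.703). It gave -1.50 without EOM 1 (exact p = 0.0108) and -0.88 without the 3 arrays (exact p = 0.0317). Only these 2 of 15 alternatives had an exact p under 0.05, and the other 13 did not. Over the 15 the difference ran from -1.50 to -0.0068, with an exact p up to 0.998.

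Abca7, a phospholipid exporter also known from phagocytosis, ran from 91.4 (median 117) to 245 in EOM and from 154.3 (median 211) to 453.5 in TA, with only EOM 1 inside the TA range. Its change was -0.80 ± 0.30 with an adjusted p of 0.129, and it was called without EOM 1 (-0.97, adjusted p = 0.0177). Abca2, a lipid transporter of lysosomes, was at 28.8 to 73.5 in EOM and at 9.7 to 20.4 on 5 TA arrays, with TA 5 at 74.7. It gave 0.93 ± 0.39 with an adjusted p of 0.172, and was called without EOM 1, TA 3 and TA 5 (1.27, adjusted p = 0.00841). Abca3, which fills lamellar bodies with surfactant lipid in the lung, was above the median signal on all 12 arrays and gave 0.22 (adjusted p = 0.715). A further tested Abca3 probe set (1425496_at) gave 0.63 and was not called either (adjusted p = 0.204). Abca4, the retinoid flippase of photoreceptors, gave -0.60 (adjusted p = 0.567), and Abcg8, a subunit of the sterol exporter of liver and gut, gave -0.35 (adjusted p = 0.742). The 2 tested probe sets of Abcg4 disagreed in sign, at -0.55 and 0.79, with adjusted p-values of 0.516 and 0.157.

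Abca8b, Abca8a, Abca9, Abca6 and Abca5 follow one another on chromosome 11, a group of family A lipid transporters whose substrates are less well known. All 5 were tested, and 1 rose, 0 fell and 4 did not pass (median 0.33), where 4.08% of all tested genes were higher and 6.81% lower. Abca8b was 577.4, 233.6, 637.8, 836, 800.2 and 1006.4 on the EOM arrays and 307.5, 264.3, 313.1, 220.9, 266.7 and 388.9 on the TA arrays. The groups were apart but for EOM 1. The means were 682 ± 267 and 294 ± 57.5 (SD, n = 6 each), an EOM mean 2.32-fold that of TA, with a fold change of 1.07 ± 0.31 and an adjusted p of 0.0382. Without EOM 1 it was 1.34 with an adjusted p of 0.000216. Of the other 11 arrays, leaving out TA 6 kept the call, and leaving out any of the remaining 10 ended it (adjusted p up to 0.102).

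Its neighbour Abca8a ran from 759.5 (EOM 1, median 4584) to 6304.2 in EOM and from 2810.2 (median 4148) to 6360.8 in TA. The groups overlapped over their whole range apart from EOM 1. The change was -0.20 ± 0.42 with an adjusted p of 0.882 (95% confidence interval -1.08 to 0.68). The sign rested on EOM 1: the estimate was 0.24 without it (adjusted p = 0.548) and 0.16 without the 3 arrays that stood apart (adjusted p = 0.726). Abca8b rose by 1.27 relative to Abca8a within arrays (exact p = 0.00216, adjusted over 5 pairs 0.00541), with no overlap between the groups. The 2 genes are close in sequence, and binding of either probe set to the other transcript was not tested.

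Abca6 was at 33.1, 60.5, 53.8, 79, 130.8 and 87.1 in EOM and at 38.4, 22.1, 25.9, 21.2, 6 and 33 in TA, so that the groups met only through EOM 0 and TA 0. Its fold change was the largest upward 1 among ABC genes, 1.13 ± 0.35, with an adjusted p of 0.0545. It was called without EOM 1 (1.16, adjusted p = 0.0283), and all its signals were low. Abca9 gave 0.33 (adjusted p = 0.626) and Abca5 -0.19 (adjusted p = 0.900). A further tested Abca9 probe set (1458929_at) gave 0.85 and was not called (adjusted p = 0.337). Without EOM 1 the Abca5 estimate turned to 0.33. Beside Abca8b, 7 of 13 tested fibroblast markers were higher in EOM, among them Dpt (1.90, adjusted p = 0.000286) and Pdgfra (1.18, adjusted p = 0.0279). The other 6 were not called, among them the collagens Col1a1 (-0.84), Col1a2 (-0.09) and Col3a1 (0.0029). The summed signal of the list was 154896 to 376286 in EOM and 98543 to 220183 in TA, so the groups overlapped. Their part in the result was not tested.

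**Figure D5:**
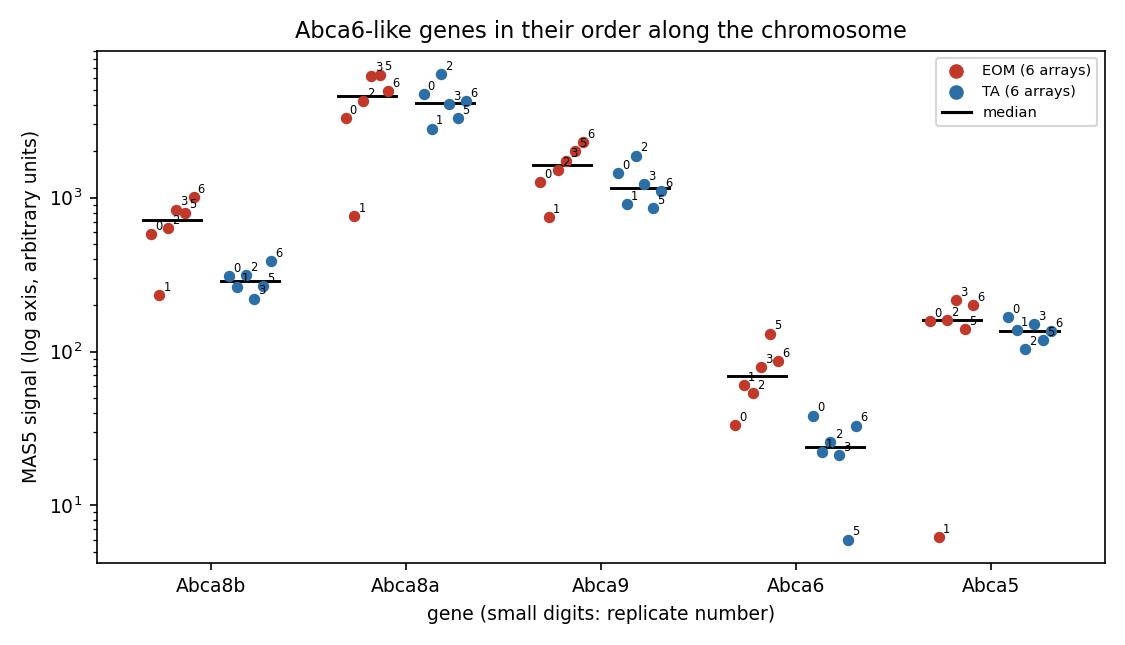
MAS5 signal (log axis, arbitrary units) of Abca8b, Abca8a, Abca9, Abca6 and Abca5 in their order along the chromosome, on each array with its replicate number and black lines at the medians. EOM lies above TA for Abca8b but for EOM 1 (233.6), while the groups overlap broadly for Abca8a, Abca9 and Abca5; heights of different genes are not comparable.

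Among the transporters of inner organelles and the family E and F genes, limma called 0 of 11 with all arrays, and 0 had an unadjusted p under 0.05. Family D carries fatty acids and their coenzyme A esters into peroxisomes, with Abcd4 in the lysosome, and its 3 tested genes were Abcd2 (0.28), Abcd3 (0.27) and Abcd4 (-0.39), with adjusted p-values of 0.690 to 0.843. Of the smaller family B transporters of mitochondria and lysosomes, Abcb8 gave 0.97 ± 0.52 (adjusted p = 0.334). Its EOM range of 27.7 to 377.6 had EOM 1 at the top and overlapped the TA range of 10.7 to 140.4. Abcb10, an inner mitochondrial membrane protein needed for haem synthesis, was at 204.5 to 315.6 in EOM and 112.5 to 245.5 in TA (0.40, adjusted p = 0.397). Abcb6 (0.23) and the lysosomal peptide carrier Abcb9 (-0.03) did not pass either. Abce1, which splits ribosomes after translation, gave -0.28, and Abcf1, Abcf2 and Abcf3 gave -0.09, 0.11 and 0.41. For the probe set used, the standard error of Abcf1 (0.23) was the smallest of any tested ABC gene. Its tested probe sets ran from -0.78 to 0.08. Of these, 1452236_at was not called with all arrays (-0.68, adjusted p = 0.595). It was called lower without EOM 1 (-1.23, adjusted p = 0.0339) and without EOM 1, TA 3 and TA 5 (-1.33, adjusted p = 0.0289). The tested Abce1 probe sets disagreed in sign, at -0.28 and 0.30, and neither was called.

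In the level of single genes, 19 of the 37 tested ABC genes were above the array's median signal on all 12 arrays. The tested genes had passed the level filter and were represented by their brightest probe sets, which favours such a count. The share among all tested genes was not determined, so the count describes no trait of ABC genes. The 8 genes too dim to test were Abca12, Abca13, Abca14, Abca16, Abcb11, Abcc2, Abcc6 and Abcg5. The signals of their brightest probe sets ran from 0.5 to 120.5. Among them are the bile salt exporter Abcb11, the conjugate exporter Abcc2 of bile canaliculi and the Abcg8 partner Abcg5, genes best known from liver and gut. With no level filter all 45 genes were tested, and 1 was higher and 2 lower (6.68% of all genes were called, 2.39% higher and 4.29% lower), with Abcg1 no longer past the threshold.

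Genes that work with these transporters were examined from lists, with all arrays only, so how far their calls rest on single arrays was not tested. Among 10 tested regulators of drug efflux genes, 2 fell and 0 rose, against 6.81% lower and 4.08% higher among all tested genes. Pparg, a nuclear receptor known to raise Abcg2 in some cells, had means of 12.2 ± 14.5 and 186 ± 82.2 (SD, n = 6 each; -2.86, adjusted p = 3.60e-05). Epas1, the hypoxia factor of endothelium, had means of 4547 ± 1819 and 19627 ± 8440 (-2.14, adjusted p = 0.000494). Ahr, the xenobiotic receptor, gave -1.13 with an adjusted p of 0.0519. Of 13 tested partners of cholesterol efflux 1 fell and 0 rose, which is near the 6.81% lower among all tested genes. It was the lipoprotein receptor Scarb1, with means of 231 ± 42.2 and 4601 ± 2359 (-4.10, adjusted p = 1.72e-07). Both Scarb1 and Epas1 are well known from endothelium, whose markers were lower in EOM as given above. The part of the endothelial markers in these values, and that of Pparg in the Abcg2 values, was not tested.

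Carriers of the solute carrier superfamily, which move drugs without ATP, included genes that rose. Of 8 tested, 3 were higher in EOM and 0 lower, where 4.08% of all tested genes were higher and 6.81% lower. Slc47a1, a proton-coupled extruder of organic cations, had means of 121 ± 37.7 and 30.7 ± 32.1 (1.70, adjusted p = 0.00426). The organic anion uptake carriers Slco1a4 (1.37, adjusted p = 0.0209) and Slco2b1 (0.84, adjusted p = 0.0480) were higher as well. The part of the higher fibroblast markers in these values was not tested. Of 7 tested peroxisomal partners of family D, limma called 0, and 0 had an unadjusted p under 0.05. The antigen peptide transporters Tap1 (-0.45, adjusted p = 0.552) and Tap2 (0.13, adjusted p = 0.887), ABC family members under other symbols, did not pass, and Cftr was too dim to test.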

How the data were processed

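Total RNA of 12 side population cell preparations was amplified in 2 cycles, biotin-labelled and hybridized to 1 array each, per the labels' protocols. The deposited values are signal intensities from MAS5, per the submitters' processing notes; each column had a trimmed mean (2% off either end) of 150, the authors' scaling. Detection calls and scan dates were not used here. Sample titles give the groups and the replicate numbers.

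Probe sets were named by the platform annotation (34945 with 1 symbol, 932 with several, 9160 with none); only those with 1 symbol were named. After removal of 64 controls and of the dimmest 40% of probe sets by mean signal, log2(signal + 16) of 27023 probe sets (13093 genes) was compared with limma 3.58.1 in R 4.3.3 (intensity trend, two-sided, Benjamini-Hochberg over all tested probe sets, threshold 0.05). Fold changes on this scale understate changes of dim genes. A gene is represented by its brightest probe set over the 12 arrays. The fit was tested on simulated data. Precision is limited by the 6 arrays per group.

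The members, roles and lists were chosen with earlier results of these data known. Named genes were the 3 dye pumps, members called with all arrays or without EOM 1, and those with the largest changes, to 24 genes; from each list, called members, at most 4. Other members are given under their role, and the second Abcc9 probe set and the 5 gene pairs were chosen after their values were seen. Of the 45 member genes, 35 matched a RefSeq promoter sequence and 0 symbols differed from RefSeq (GRCm38.p6).

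The deviations of arrays of the same number correlated at -0.33 to 0.16, and 1 of 6 EOM arrays was closest to its own number. The correlations were negative for numbers 1, 3 and 5, which hold the 3 arrays that stood apart. They were 0.15, 0.03 and 0.16 for numbers 0, 2 and 6. This check therefore cannot show that pairing is absent. The numbers were not used to pair arrays in the main fit. The alternatives were the added constant, quantile normalization, median centring, the filter, the trend, array weights, the replicate block, averaging the probe sets of a gene, and arrays left out.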

Additional observations from a re-analysis of the deposited data

Results flagged for a closer look

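Within a group of 6 arrays, 1 array stood far from the other 5 in 7 of 48 combinations of gene and group examined. The rule used flags about 1 in 20 by chance, but that rate cannot be set against this count. The genes were the named ones, chosen partly by calls and large changes that a single array can alter, and they share the same arrays. Of the 7 combinations, 4 were on EOM 1. Abcg2 was 100.3 on EOM 1 against 495.8 to 1014.3 on the other EOM arrays, and Abca1 was 19.9 there against 657.8 to 1742.1. Abcc3 was 137 on EOM 1 against 1.3 to 6.8, and Abcg3 was 172.8 against 26.6 to 42. Abcb1b was 60.2 on EOM 6 against 139 to 198. Abca1 was 221.5 on TA 3 against 1062.1 to 1446.1 on the other TA arrays. Abca2 was 74.7 on TA 5 against 9.7 to 20.4. EOM 1, TA 3 and TA 5 are the arrays with the highest median signals.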

How the results depend on the processing

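Abcg2 kept its direction and call in all 24 alternatives, and Abcb1b in 23, being -1.29 (adjusted p = 0.0536) with median centring; Abcb1a was called in 0 of 24. Abca8b lost its call in 15 of 24 and Abcg1 in 16. The count of higher ABC genes, 1 with all arrays, was 0 with quantile normalization, median centring or either replicate block, 2 with probe sets of a gene averaged, 3 with array weights or without the 3 arrays with high median signal, and 0 to 2 with 1 array left out. The count of lower genes, 3 with all arrays, was 7 with array weights, 5 with the mean of probe sets or without the 3 arrays, and 2 to 6 with 1 array left out. With the replicate block, fixed or random, the calls were Abcg2 and Abcb1b, and Abca8b (adjusted p = 0.0607 and 0.0534) and Abcg1 (0.0949 and 0.0618) lost theirs. Among the 24 named genes the sign turned, with no call on either side, for Abcg4 (0.12) and Abce1 (0.0085) with the mean of probe sets, Abca1 without EOM 1 (0.29; -0.92 to 0.29 with any 1 array left out), Abcd4 with array weights (0.048) and without the 3 arrays (0.22), and Abcg8 without the 3 arrays (0.073). The other 13 tested genes were followed only without EOM 1 and without the 3 arrays. Of these, Abcc12 was below the level tested in both settings, and Abcd2 without the 3 arrays. In at least 1 setting, 6 of the 13 turned sign: Abca8a (0.24 and 0.16), Abca5 (0.33 and 0.33), Abcf1 (0.030 and 0.12), Abcc10 (-0.14 without EOM 1), Abcf2 (-0.17 without the 3 arrays) and Abcb9 (0.012 without the 3 arrays). The second Abcc9 probe set lost its call in 9 of 12 single omissions (adjusted p up to 0.0990) and with quantile normalization (0.0561), median centring (0.133) or no intensity trend (0.0558). Over all genes, 1425 calls became 3296 with array weights, 2716 without EOM 1, 2908 without the 3 arrays and 924 with median centring. The cause of these differences was not tested. All alternatives of the gene-pair differences were chosen after seeing the data. Those of Abcg2 with Abcb1a, Abca8b with Abca8a and Abcc9 with Kcnj8 stayed past the threshold in 15 of 15. Those of Abcb1b with Abcb1a and of Abcg1 with Abca1 passed it in 2 of 15 each. Dim genes such as Abca6, Abca2 and Abcc3 lie near the array's background, which limits their fold changes.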
